A study of Mus musculus with 6 samples.

Results

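The genes described here make cholesterol, sense it, take it up as lipoprotein or export it. They were taken from a list of 31 mouse genes, each read from the probe set that names that 1 gene alone and is brightest on average over all 6 arrays. Of the 31 genes, 29 were measured in this way, out of 19938 genes with such a probe set in the series; Acat2 and Nr1h2 were not analysed here. All 29 lay above the limit set for dim genes, the lowest 30% by mean level, and so were among the 13956 genes tested. The members were selected on function and on their values in the wild type to knockdown contrast of these same arrays, so the differences of the members are given as a description, with no p-value, and the counts of members past a threshold support nothing on their own.

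Total RNA was measured on Affymetrix whole-transcript arrays, 1 per mouse, in 3 wild type mice and 3 mice carrying a MYB knockdown. All were C57BL6 males, 4 weeks old, and the labels do not say how the level of Myb was lowered or whether other alleles were present. The cells were a sorted bone marrow fraction that carries Kit and CD11b and little of the lineage markers, abbreviated K11bL, and the series title calls them myeloproliferative. Values are the authors' log2 expression values, so a difference of 1 is a doubling, and every difference below is the knockdown mean minus the wild type mean on that scale, with the standard error (SE) of a limma fit over all genes tested and n = 3 mice per group.

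Cells make cholesterol from acetyl-CoA through mevalonate and isoprenoid units, which are joined to squalene, closed into lanosterol and then trimmed to cholesterol. The transcription factors SREBP are held in the endoplasmic reticulum with the escort protein SCAP and the INSIG proteins when sterol is plentiful, and are carried to the Golgi, cut and released to the nucleus when it is scarce. Surplus sterol activates the LXR receptors, which raise the export pumps ABCA1 and ABCG1 and apolipoprotein E. Among the receptors that bind lipoproteins, VLDLR, LRP8 and LRP1 belong to a single family. In progenitors of the bone marrow, export through these pumps with apolipoprotein E is known to restrain cytokine-driven proliferation.

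The targeted gene and the arrays were checked first. Myb lay at 11.47, 11.46 and 11.46 in wild type mice 1 to 3 and at 11.26, 11.08 and 11.14 in knockdown mice 1 to 3, and each knockdown mouse was below each wild type mouse, by 0.30 ± 0.06 on average (adjusted p = 0.0196, limma). When any wild type mouse or the second knockdown mouse was left out, the adjusted p lay between 0.0777 and 0.0963. Array medians ran from 5.87 to 5.99. Knockdown mouse 3 stood apart, with a correlation over all probe sets of 0.977 and 0.984 with the other knockdown arrays, where pairs of wild type arrays reached 0.993 to 0.995. None of the 29 genes lies within 20 Mb of Myb on its chromosome (count of 0 of 29, GRCm38.p6 annotation). Markers of other cells differed between the groups. Of 5 primary granule markers, 5 were called lower, and the log2 of their summed intensity was 14.39 to 14.56 in wild type and 13.02 to 13.10 in knockdown. Of 5 measured megakaryocyte and platelet markers, 5 were called higher, with summed levels of 9.91 to 10.04 in wild type and 11.40 to 11.63 in knockdown. Of 5 measured stem and progenitor markers, 4 were called higher (11.53 to 11.65 against 12.06 to 12.17). Of 6 monocyte and macrophage markers, 2 were called higher and 1 lower (10.38 to 10.59 against 10.87 to 11.18). Among 6 markers of eosinophils, basophils and mast cells, 5 were called lower and 1 higher (12.80 to 13.12 against 10.88 to 11.27). Of 8 markers of mature neutrophils, 4 were lower and 1 higher, and of 4 measured B lymphoid markers 2 were lower. For 4 measured erythroid markers limma called 0, with summed levels of 10.18 to 10.29 and 10.24 to 10.64. In knockdown mouse 3, however, Klf1 was 8.59 and Epor 7.77, where the other mice had 7.10 to 7.78 and 6.39 to 6.92. Tfrc and Alas2 were not highest in that mouse. Kit and Itgam, the genes of the sorted markers, had differences of -0.27 and -0.39 (adjusted p = 0.06 and 0.202, limma). No marker measured lay under the lower quartile of its array in all 6 mice. The part of these cell types in the results below was not tested, and in sorted bulk RNA a change in the number of cells of a type and a change in RNA per cell cannot be told apart.

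Against this background 5 of the 29 genes passed the threshold (adjusted p under 0.05 over all genes tested) with a higher level in knockdown: the receptor gene Vldlr, both SREBP genes, Srebf1 and Srebf2, and the sterol enzymes Cyp51 and Hsd17b7. The threshold was passed with a higher level by 6.12% of all genes tested. A lower level past the threshold was found for 2, Apoe and Abca1, against 5.48% of all genes tested. In either direction 11.6% of all genes passed. The median difference of the 29 genes was 0.19, against 0.02 over all genes tested, and 19 of the 29 differences were positive, against 53.6% of all genes tested. The knockdown mice lay wholly above the wild type mice for 12 members (19.9% of all genes tested) and wholly below for 5 (14.4% of all genes tested). For the other 12 the groups overlapped; over all genes tested 34.3% did not overlap in either direction. These counts moved with single arrays. Without knockdown mouse 3, 10 members were called higher and 3 lower, while the shares of all genes were then 17.2% and 10%. Without wild type mouse 1, 2 or 3 the higher calls numbered 3, 2 and 2 and without knockdown mouse 2 they numbered 3; the shares of all genes higher were then 2.12%, 2.19%, 2.54% and 3.09%. Lower calls by limma were 0 when wild type mouse 2, wild type mouse 3 or the second knockdown mouse was left out (with 3, 2 and 2 members lower at an unadjusted p under 0.05), and 1 without wild type mouse 1. The shares of all genes lower were then 2.72%, 2.81%, 3.44% and 2.63%, in the same order. After median centring of the arrays 8 members were higher and 1 lower, with 1433 of all genes higher and 593 lower in place of 854 and 765.

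**Figure D1:**
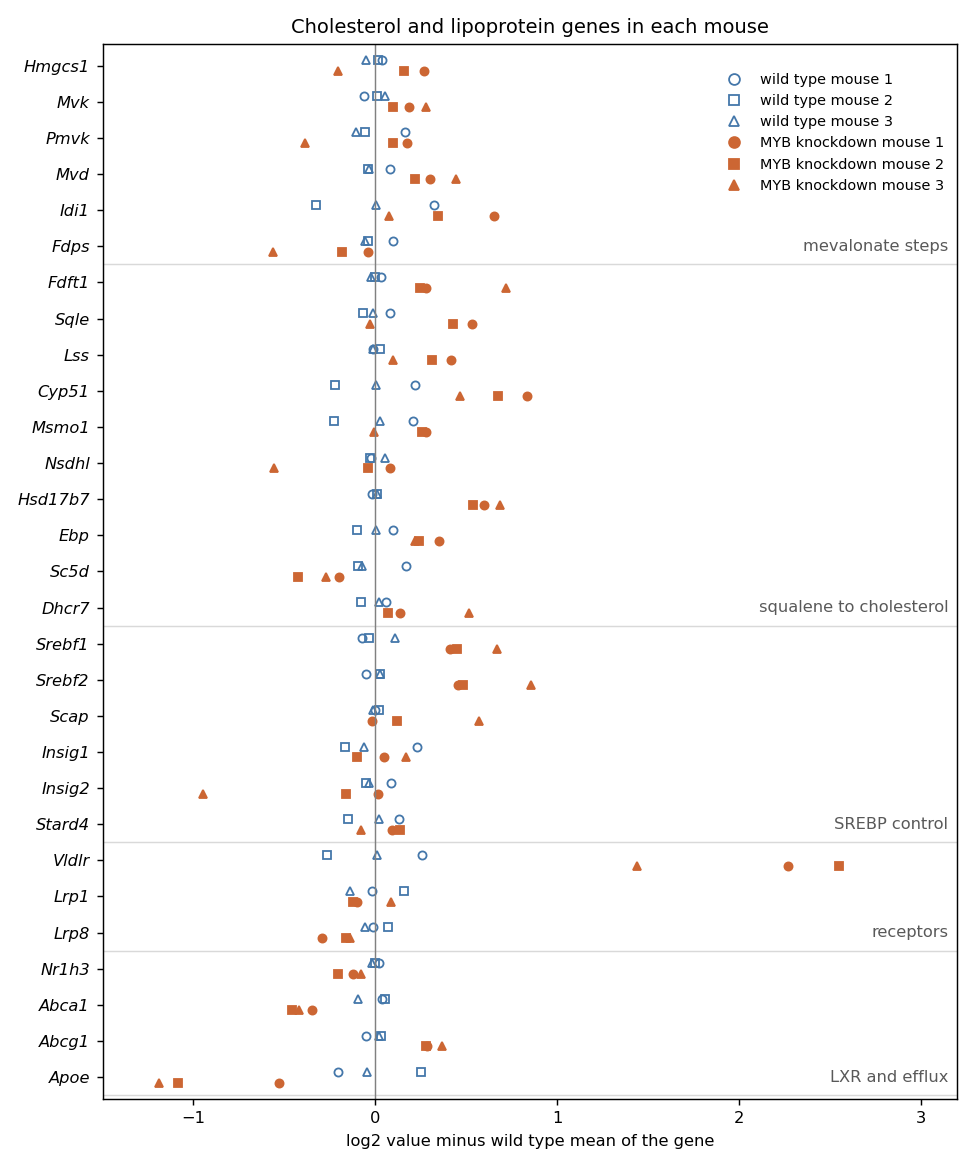
Log2 value of each of the 29 genes minus the wild type mean of that gene (horizontal axis) in each of 6 mice; open blue symbols are wild type mice, filled orange symbols knockdown mice, and the symbol's shape is the mouse number. Vldlr lies far to the right in all 3 knockdown mice and Apoe to the left, while Hmgcs1, Pmvk, Nsdhl and Insig2 show knockdown mouse 3 apart from knockdown mice 1 and 2.

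The early enzymes, from acetyl-CoA units to farnesyl diphosphate, had differences of both signs. Of the 6 measured, limma called 0 (1, Mvd, had an unadjusted p under 0.05). Over all genes tested 11.6% were called in either direction, so a lack of calls among 6 genes says little. The median difference was 0.13 and the range ran from -0.26 to 0.36. Hmgcs1, the synthase that forms HMG-CoA, lay at 8.38, 8.35 and 8.29 in wild type and at 8.61, 8.50 and 8.14 in knockdown. Knockdown mice 1 and 2 were above all wild type mice and knockdown mouse 3 below all of them, so the mean difference was 0.07 ± 0.13. Pmvk, phosphomevalonate kinase, lay at 6.72, 6.50 and 6.45 against 6.73, 6.66 and 6.17 (difference -0.04 ± 0.16), with knockdown mouse 3 again below all wild type mice. Without knockdown mouse 3 the differences of Hmgcs1 and Pmvk were 0.21 and 0.14, the highest over the arrays left out in turn.

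Mvk, mevalonate kinase, and Mvd, the decarboxylase that yields isopentenyl diphosphate, were a little higher in every knockdown mouse. Mvd lay at 6.64, 6.52 and 6.52 in wild type and 6.86, 6.78 and 7.0 in knockdown, a difference of 0.32 ± 0.10 with no overlap, which passed the threshold only after median centring, with array weights or at 0.1. Mvk differed by 0.19 ± 0.10, also with no overlap. Idi1, the isomerase of isopentenyl diphosphate, spread widely within both groups, with 8.43, 7.78 and 8.11 against 8.76, 8.45 and 8.18, and the groups overlapped (0.36 ± 0.20). A second probe set of Idi1 gave a like difference, 0.38. Fdps, the synthase of farnesyl diphosphate, had the opposite sign, with 10.11, 9.98 and 9.96 in wild type and 9.98, 9.83 and 9.45 in knockdown (-0.26 ± 0.13).

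The enzymes from squalene to cholesterol held both calls among the 16 enzymes. Of these 10, 2 passed the threshold with a higher level, 8 differences were positive, and the median was 0.27. Over all genes tested 6.12% passed with a higher level and 53.6% of the differences were positive. Cyp51, the lanosterol demethylase, lay at 7.02, 6.58 and 6.81 in wild type mice 1 to 3 and at 7.64, 7.48 and 7.27 in knockdown mice 1 to 3. The groups did not overlap, with a spread of similar size in both, and the difference was 0.66 ± 0.15, or 1.58-fold. The call was lost when any array but those of wild type mouse 1 and knockdown mouse 3 was left out, with differences of 0.55 to 0.66. Hsd17b7, a sterol ketoreductase that works in the removal of methyl groups from lanosterol, had 7.19, 7.22 and 7.22 in wild type and 7.81, 7.75 and 7.89 in knockdown. Both groups were tight, the difference was 0.61 ± 0.10 (1.52-fold), and it passed under each of the 16 alternative settings run.

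Fdft1, squalene synthase, which commits farnesyl diphosphate to sterol, lay at 8.79, 8.76 and 8.73 against 9.04, 9.01 and 9.48 (0.41 ± 0.14). A second probe set of Fdft1 differed by 0.43. Here knockdown mouse 3 was the highest of the knockdown mice. Sqle, squalene epoxidase, showed the reverse, with 7.92, 7.77 and 7.82 against 8.37, 8.26 and 7.81, so that knockdown mouse 3 lay among the wild type values (0.31 ± 0.15). Lss, which closes the sterol ring, differed by 0.27 ± 0.11 and Ebp, a sterol isomerase, by 0.27 ± 0.10, both with no overlap. These 4 genes passed the threshold only without knockdown mouse 3 or with array weights, apart from Fdft1, which also passed after median centring and at a threshold of 0.1.

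Dhcr7, the reductase that ends the pathway, differed by 0.24 ± 0.14 with no overlap, and Msmo1, the methylsterol oxidase, by 0.18 ± 0.14 with overlap. Negative differences were found for Sc5d and Nsdhl. Sc5d, the sterol desaturase of the late steps, lay at 8.83, 8.57 and 8.59 in wild type and 8.46, 8.24 and 8.39 in knockdown, with no overlap (-0.30 ± 0.11), and passed the threshold only without knockdown mouse 3 or with array weights. Nsdhl, a dehydrogenase that acts in the same demethylation as Hsd17b7, lay between 8.87 and 8.95 in wild type and at 8.98, 8.86 and 8.34 in knockdown (-0.17 ± 0.16). Its difference was 0.02 without knockdown mouse 3.

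Taken mouse by mouse, the 16 measured enzymes had median shifts from the wild type mean of 0.28, 0.23 and 0.09 in knockdown mice 1, 2 and 3. The wild type mice had median shifts of 0.08, -0.05 and 0.00, and over all genes tested the knockdown shifts were 0.01, 0.03 and 0.05. Knockdown mouse 3 had the lowest level of the knockdown mice for 10 of the 16 enzymes and the highest for 5. How often that mouse was lowest over all genes tested was not counted. Of the 16, 14 lay above the wild type mean in knockdown mouse 1, 13 in knockdown mouse 2 and 9 in knockdown mouse 3. Of all 13956 genes tested, 7184, 7801 and 7763 lay above it in these mice, so the count in knockdown mouse 3 was near that of all genes.

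Both genes of the SREBP factors were higher in knockdown. Srebf2, whose product is the main activator of the cholesterol enzymes, lay at 8.82, 8.90 and 8.90 in wild type and 9.33, 9.35 and 9.73 in knockdown. Srebf1, whose products act more on fatty acid synthesis, lay at 7.62, 7.66 and 7.80 in wild type and 8.10, 8.14 and 8.36 in knockdown. Neither gene's groups overlapped, and knockdown mouse 3, the lowest knockdown mouse for most enzymes, was the highest for both. The differences were 0.60 ± 0.12 (1.51-fold) for Srebf2 and 0.51 ± 0.11 (1.42-fold) for Srebf1. Without any 1 wild type mouse neither passed the threshold, and Srebf1 did not pass without knockdown mouse 2. The differences then lay between 0.57 and 0.61 for Srebf2 and between 0.47 and 0.56 for Srebf1. The probe sets do not tell apart the products that Srebf1 makes from its alternative starts.

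Of the 4 other SREBP control genes, none passed the threshold under any setting run. On all arrays 11.6% of all genes tested passed in either direction, so a lack of calls among 4 genes says little. Scap, the escort protein, lay between 8.78 and 8.82 in wild type and at 8.78, 8.92 and 9.37 in knockdown, so that knockdown mouse 3 alone was far above the wild type mice (0.22 ± 0.15). Insig1, which SREBP itself induces, differed by 0.04 ± 0.13, with values of 8.56, 8.16 and 8.27 against 8.38, 8.23 and 8.50. Insig2, its paralog, lay between 8.28 and 8.41 in wild type and at 8.34, 8.17 and 7.38 in knockdown. Knockdown mouse 3 again stood alone, and the difference of -0.36 ± 0.23 shrank to -0.07 without it. Stard4, a carrier of sterol between membranes, differed by 0.05 ± 0.12. Of Hmgcs1, Pmvk, Nsdhl, Insig1, Stard4 and Lrp1 the sign of the difference changed with single arrays left out.

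Vldlr, the receptor for triglyceride-rich lipoproteins and for apolipoprotein E, had the largest difference of the 29 genes. Its level was 7.61, 7.09 and 7.37 in wild type mice 1 to 3 and 9.62, 9.90 and 8.79 in knockdown mice 1 to 3. Even the lowest knockdown mouse, mouse 3, lay well above the highest wild type mouse. The difference was 2.08 ± 0.27 (4.24-fold), the 13th highest of the 13956 genes tested. It lay between 1.85 and 2.41 with each array left out in turn and passed the threshold under each of the 16 alternative settings. Lrp8 and Lrp1, the other receptors among the 29 genes, did not pass the threshold under any setting run. Lrp8, which binds apolipoprotein E and reelin, lay at 8.21, 8.29 and 8.16 in wild type and 7.93, 8.06 and 8.08 in knockdown, slightly lower with no overlap (-0.20 ± 0.10). Lrp1, a large endocytic receptor of many ligands, overlapped fully (-0.05 ± 0.12).

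The genes of export and of the LXR receptors held both lower calls. Apoe, the apolipoprotein that carries exported sterol and is a ligand of VLDLR, lay at 9.30, 9.75 and 9.45 in wild type and 8.97, 8.41 and 8.31 in knockdown. Each knockdown mouse was below each wild type mouse, with mouse 1 nearest, and the difference was -0.93 ± 0.19 (1.91-fold lower). The call was lost when wild type mouse 2, wild type mouse 3 or the second knockdown mouse was left out, with differences of -0.96 to -0.81. Abca1, the pump that loads sterol onto lipid-poor apolipoprotein, lay at 7.21, 7.23 and 7.08 against 6.82, 6.71 and 6.75, a difference of -0.41 ± 0.10 with no overlap (1.33-fold lower). Its call was lost when any wild type mouse or the second knockdown mouse was left out (differences of -0.46 to -0.38) and after quantile normalization or median centring (-0.36 and -0.33).

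Abcg1, the partner pump that loads mature lipoprotein, went the other way. It lay at 8.26, 8.34 and 8.34 in wild type and 8.60, 8.60 and 8.68 in knockdown, tight in both groups, with a difference of 0.31 ± 0.09 that did not pass the threshold. It passed without knockdown mouse 3, after median centring, with array weights and at a threshold of 0.1. Nr1h3, the gene of LXR alpha, was dim, brighter than only 6.60% of the genes tested, and lay between 5.40 and 5.44 in wild type and between 5.22 and 5.34 in knockdown (-0.14 ± 0.08). The 4 measured genes of this role held 3 with all knockdown mice below and 1 with all above. Over all genes tested the shares were 14.4% below and 19.9% above.

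**Figure D2:**
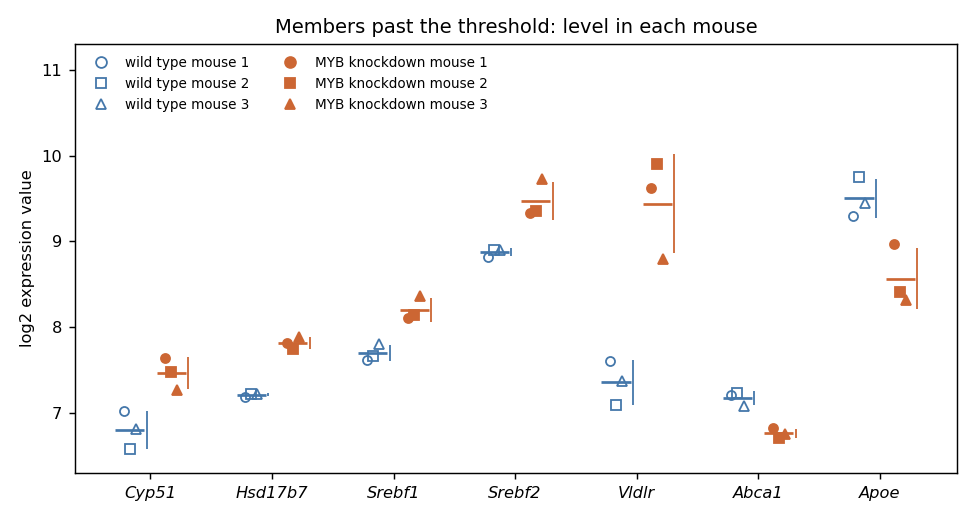
Log2 expression value (vertical axis) of the 7 members past the threshold in each mouse; open blue symbols are wild type, filled orange symbols knockdown, horizontal bars are group means and vertical lines are ± 1 SD, n = 3. For no gene do the groups overlap, and Vldlr has the widest spread among knockdown mice (SD 0.58).

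The promoter sequences of the genes were read for what the list shares beyond its values. RefSeq promoters (GRCm38.p6) were at hand for 26 of the 31 genes and not for Fdps, Fdft1, Sqle, Stard4 and Abcg1, and the 250 bases before each annotated start were searched on both strands. NF-Y, a factor that acts beside SREBP at many sterol genes, binds CCAAT. Of the 14 synthesis enzymes with a promoter, 13 held CCAAT or its reverse complement ATTGG before at least 1 listed start, all but Acat2. The share was 37.5% over all 27025 genes of the promoter table and 39.1% over the tested genes found in it. CCAAT was held also by 4 of 5 SREBP control genes (all but Scap) and by 1 of 3 receptor genes (Vldlr, not Lrp1 or Lrp8). Of the 4 export and LXR genes with a promoter (Abca1, Apoe, Nr1h2 and Nr1h3), 0 held it. These groups are too small to set against the share of all genes. The sterol regulatory element in the form TCACNCCAC was found in 1 gene, Hmgcs1 (1.22% of all genes, 1.29% of the tested genes in the table). Only this form was searched, so a window without it is not shown to lack the element. The palindrome CACGTG, an E-box that SREBP can also bind, was found before Hsd17b7, Dhcr7, Sc5d, Insig1, Scap and Abca1, 6 of the 26 genes (6.86% of all genes, 9.59% of the tested genes in the table). Of the forms bound by MYB proteins, AACGG was found before 6 of the 26 genes (16.5% of all genes, 21.8% of the tested genes in the table), with Srebf1 alone among the 7 genes past the threshold. The form CAACTG, which is also an E-box, was found before 4 (12.6% of all genes, 10.4% of the tested genes in the table), among them Srebf1 and Vldlr. A match is a stretch of letters and not a measured site, and a gene with several listed starts had more windows in which to match.

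Of these windows 5 are shown: Hmgcs1 as the member with TCACNCCAC, and Cyp51, Hsd17b7, Srebf2 and Vldlr as genes past the threshold with CCAAT. Each is the 250 bases before the start, 5′ to 3′ on the gene's strand, with CCAAT or ATTGG, TCACNCCAC and CACGTG in capitals. Hmgcs1 is chr13:119690101-119690350 (plus strand), Cyp51 chr5:4104698-4104947 (minus), Hsd17b7 chr1:169969206-169969455 (minus), Srebf2 chr15:82147019-82147268 (plus) and Vldlr chr19:27216770-27217019 (plus, the downstream of its 2 listed starts).
Hmgcs1: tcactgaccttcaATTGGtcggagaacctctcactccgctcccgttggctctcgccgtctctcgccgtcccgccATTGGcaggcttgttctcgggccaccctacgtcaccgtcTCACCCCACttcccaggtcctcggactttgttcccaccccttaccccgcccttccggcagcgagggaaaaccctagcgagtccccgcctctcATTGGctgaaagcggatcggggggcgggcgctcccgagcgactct
Cyp51: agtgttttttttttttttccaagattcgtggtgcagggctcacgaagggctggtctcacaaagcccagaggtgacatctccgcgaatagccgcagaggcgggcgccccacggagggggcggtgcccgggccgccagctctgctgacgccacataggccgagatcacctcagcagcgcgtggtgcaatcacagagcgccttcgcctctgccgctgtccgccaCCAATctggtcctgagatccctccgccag
Hsd17b7: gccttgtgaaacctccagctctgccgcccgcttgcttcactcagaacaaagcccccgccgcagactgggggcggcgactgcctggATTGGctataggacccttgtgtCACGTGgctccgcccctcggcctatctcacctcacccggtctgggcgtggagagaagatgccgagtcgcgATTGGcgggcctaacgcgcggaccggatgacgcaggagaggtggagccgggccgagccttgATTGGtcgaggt
Srebf2: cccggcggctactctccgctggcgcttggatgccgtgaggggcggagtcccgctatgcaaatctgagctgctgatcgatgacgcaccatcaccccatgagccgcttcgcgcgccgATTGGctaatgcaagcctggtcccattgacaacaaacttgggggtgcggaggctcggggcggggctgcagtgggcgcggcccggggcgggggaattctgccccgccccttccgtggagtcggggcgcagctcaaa
Vldlr: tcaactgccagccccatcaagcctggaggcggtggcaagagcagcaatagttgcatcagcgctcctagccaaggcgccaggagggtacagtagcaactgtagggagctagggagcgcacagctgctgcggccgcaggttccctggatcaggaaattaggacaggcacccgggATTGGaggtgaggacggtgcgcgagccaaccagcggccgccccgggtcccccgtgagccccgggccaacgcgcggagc
Hmgcs1 and Hsd17b7 each hold 3 CCAAT boxes. In Hmgcs1 the TCACNCCAC match begins 137 bases before the start, between boxes that begin 176 and 45 bases before it. Cyp51 holds 1 box, 29 bases before its start. The box of Srebf2 lies 135 bases before its start and that of Vldlr 78 bases before. Mvk, not shown, holds 5.

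**Figure D3:**
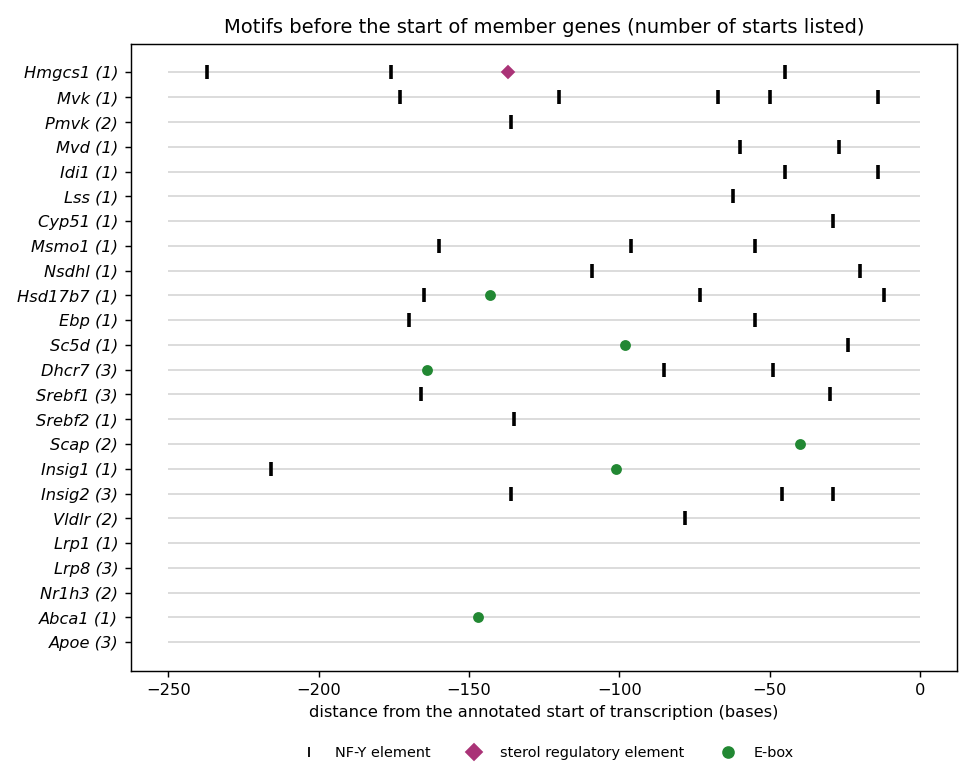
Position of the motifs in the 250 bases before the annotated start (horizontal axis, start at 0) for the measured genes with a RefSeq promoter. Black bars are the NF-Y element CCAAT and circles the E-box CACGTG. Diamonds are the sterol regulatory element in the form TCACNCCAC, the only form searched. Hits of all listed starts of a gene are drawn on its line. The 13 measured enzymes each hold at least 1 black bar, and Scap, Lrp1, Lrp8, Nr1h3, Abca1 and Apoe hold none.

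Other genes of the same metabolism, from lists of textbook members that hold none of the genes above, were read from the same fit. These lists were written with earlier results of these data known. Their counts and adjusted p-values are therefore a description and no independent check of the members. Of 59 such genes tested, 8 rose and 3 fell, beside 6.12% and 5.48% of all genes, and the median difference was 0.09. Without knockdown mouse 3, 18 rose and 6 fell (17.2% and 10% of all genes). Without wild type mouse 1 or 2, 4 and 5 rose, and limma called 0 lower (4 and 4 at an unadjusted p under 0.05). In those fits 2.12% and 2.19% of all genes were higher and 2.63% and 2.72% lower. Without wild type mouse 3 or knockdown mouse 2, 1 fell (2.81% and 3.44% of all genes lower).

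Genes of fatty acid synthesis under SREBP-1 were the group with the most calls. Of 11 tested, 4 rose and 0 fell in the limma fit (7 higher and 0 lower at an unadjusted p under 0.05), all 11 differences were positive and the median was 0.31. Over all genes tested 6.12% were higher and 5.48% lower past the threshold, and 53.6% of the differences were positive. Fads2, the first desaturase of polyunsaturated fatty acids, lay at 8.50, 8.67 and 8.71 in wild type and 10.08, 10.07 and 10.43 in knockdown, a rise by 1.57 ± 0.12 (2.97-fold, adjusted p = 0.000174, limma). Fads1, the next desaturase, lay at 8.76, 8.75 and 8.88 against 9.86, 9.86 and 9.99, a rise by 1.11 ± 0.09 (adjusted p = 0.000227, limma). Elovl6, an elongase, rose by 0.62 ± 0.10 (adjusted p = 0.00707, limma; 0.0505 without wild type mouse 1). Fasn, fatty acid synthase, the remaining call, named after its values were seen, rose by 0.70 ± 0.13 (adjusted p = 0.00929, limma; 0.0549 and 0.0536 without wild type mouse 1 or 2). Median shifts of these 11 genes were 0.35, 0.36 and 0.33 in knockdown mice 1 to 3, so knockdown mouse 3 did not lag here as it did for the cholesterol enzymes.

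Of 10 genes tested for esters, efflux and LXR targets, 1 rose and 0 fell by limma (3 higher and 0 lower at an unadjusted p under 0.05). Past the threshold, 6.12% of all genes tested were higher and 5.48% lower. Lpl, lipoprotein lipase, which works on the lipoproteins that VLDLR binds, lay at 6.91, 7.31 and 7.16 in wild type and 8.45, 8.22 and 8.20 in knockdown. The groups lay well apart, and Lpl rose by 1.16 ± 0.13 (2.24-fold, adjusted p = 0.00109, limma), with a call under each of the 16 alternative settings. Of 15 genes of uptake and lysosomal export, 2 rose and 1 fell, beside 6.12% and 5.48% of all genes. Lrp12, a further member of the receptor family, rose by 0.85 ± 0.11 (adjusted p = 0.00202, limma), from 7.04, 7.0 and 7.18 to 7.78, 8.01 and 7.99, under every setting. Lrp4, another, fell by 0.82 ± 0.14 (adjusted p = 0.00797, limma), with an adjusted p of 0.0503 and 0.0501 without wild type mouse 1 or 2. Scarb1, the receptor of high-density lipoprotein, rose by 0.49 ± 0.13 (adjusted p = 0.043, limma). When any wild type mouse or the second knockdown mouse was left out, the adjusted p of Scarb1 lay between 0.0837 and 0.161, and it was 0.0579 after quantile normalization and 0.0504 with no filter.

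Of 12 genes tested in the branches that use isoprenoids for other ends, 1 rose and 1 fell, with a median of 0.03. Past the threshold, 6.12% of all genes tested were higher and 5.48% lower. Rce1, the protease that trims prenylated proteins, rose by 0.48 ± 0.10 (adjusted p = 0.0194, limma), and Zmpste24, another such protease, fell by 0.41 ± 0.11 (adjusted p = 0.0451, limma). When any wild type mouse or the second knockdown mouse was left out, neither passed, with adjusted p of 0.0707 to 0.109 and of 0.104 to 0.18. Zmpste24 also missed the threshold after median centring (0.0784), with no filter (0.0536), with the mean of its probe sets (0.0515) and without the trend (0.0639). Median shifts of these 12 genes were 0.12, 0.11 and -0.33 in knockdown mice 1 to 3, a wider gap than for the cholesterol enzymes. Of 5 other sterol enzymes tested, limma called 0 higher (0 at an unadjusted p under 0.05) and 1 lower, beside 6.12% and 5.48% of all genes. Tm7sf2, a sterol reductase, fell by 0.46 ± 0.12 (adjusted p = 0.041, limma), and its adjusted p lay between 0.072 and 0.177 when any array but that of knockdown mouse 3 was left out, at 0.0815 after quantile normalization, at 0.074 after median centring, at 0.053 with no filter and at 0.05 with the replicate number as a block. Of 6 genes of SREBP processing and turnover, limma called 0, with 0 higher and 1 lower at an unadjusted p under 0.05 and a median of -0.04. In either direction 11.6% of all genes were called.

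**Figure D4:**
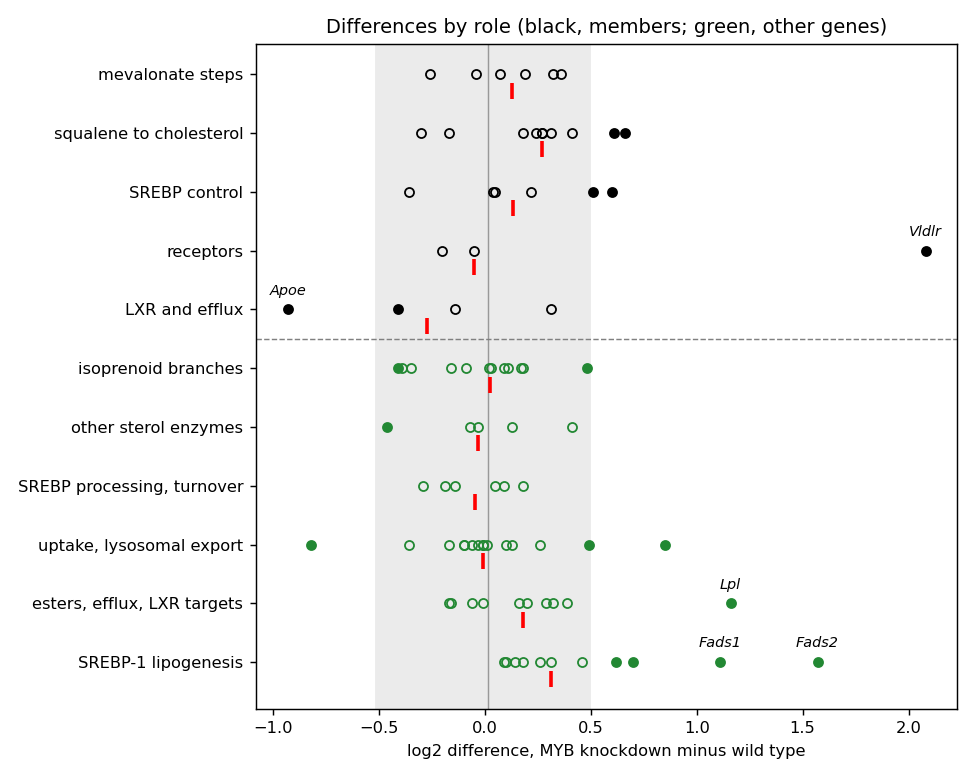
Log2 difference, knockdown minus wild type (horizontal axis), of each gene by role; black circles are the 29 members and green circles the 59 other genes tested, filled where the adjusted p was under 0.05, red ticks are medians, and the grey band spans the 5th to 95th percentile of all genes tested (-0.51 to 0.50). Among the members Vldlr, Cyp51, Hsd17b7, Srebf2, Srebf1 and Apoe lie outside the band, while the mevalonate steps and the SREBP processing genes lie inside it.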

How the data were processed

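Expression was measured in sorted bone marrow cells of 3 wild type and 3 MYB knockdown mice, 1 array each. The authors deposited log2 values per probe set; the tools named, per the submitters' processing notes, are Affymetrix Expression Console and limma. Their roles, versions and the normalization are not stated in these sources. The scale was judged from the deposited log2 values, which run from 1.83 to 13.3. Depth does not apply to arrays: the number of arrays limits the precision.

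Of 35556 probe sets, 21789 carried 1 gene symbol by GEO's platform annotation and were used, 1621 carried several and 12146 were unnamed here. Per gene the probe set of highest mean over all 6 arrays was kept, and genes in the lowest 30% were left out. Knockdown and wild type were compared by lmFit and trended eBayes (limma 3.58.1 under R 4.3.3), without covariates, with Benjamini-Hochberg adjustment over 13956 genes and a threshold of 0.05. The labels name separate mice. The fit was tested on simulated data. The members, lists and motifs were chosen with earlier results of these data known. Genes named are all members, Myb and up to 3 called genes of smallest p per other list. Some list genes were not analysed here. The alternatives were a replicate block, each array left out, quantile normalization, median centring, other filters, the mean of probe sets, other moderation, array weights and a threshold of 0.1.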

Additional observations from a re-analysis of the deposited data

How the results depend on the processing

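With 3 mice per group, small differences rest on single arrays. With each array left out in turn, the members called higher numbered 2 to 10 (5 on all arrays), those called lower 0 to 3 (2 on all arrays), the other pathway genes called higher 4 to 18 (8 on all arrays) and those called lower 0 to 6 (3 on all arrays). The shares of all genes moved as well, from 2.12% to 17.2% higher (6.12% on all arrays) and from 2.63% to 10% lower (5.48% on all arrays). The median difference of the members then lay between 0.14 and 0.23 and the difference of Myb between -0.35 and -0.26. Fits without an array have fewer mice. After median centring 8 members were higher and 1 lower, their median difference was 0.26, 1 other pathway gene was lower, and Myb differed by -0.23, no longer past the threshold. The shares of all genes were then 10.3% higher and 4.25% lower. After quantile normalization 1 member was lower (5.92% of all genes lower). With array weights, whose estimation stopped before full convergence, 12 members and 15 other genes were higher and 7 other genes lower, while the shares of all genes were 16.8% higher and 11.2% lower. At a threshold of 0.1, 8 members were higher and 6 other genes lower, with 9.85% of all genes higher and 7.45% lower. With no filter on dim genes 1 other gene was lower (3.59% of all genes lower). Without the trend Myb differed by -0.30 and missed the threshold (adjusted p = 0.0662, limma). The cause of these shifts was not tested. The replicate numbers name different mice, and the deviations of same-numbered mice correlated at 0.29, -0.19 and -0.08, so they were not taken as pairs; with the replicate number as a block, 5 members were higher and 1 lower, Abca1 and Tm7sf2 lost their calls, and 1472 genes were called in place of 1619. No called member changed sign under any setting run.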
